A study of Mus musculus with 33 samples.

Results

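Wnt10b, Ccl17, Itgad, Gabrr2, Tmprss6 and Pcolce2 were examined as 6 genes whose RNA stood highest in the nucleus accumbens of mice given both antibiotics and morphine. They were chosen by their counts in those libraries, for large rises there, and listed by symbol. They are 6 of the 24053 genes in the count table. Their levels in the antibiotic and morphine group are therefore a description of the choice and carry no test. What was tested is the rest of the design, and first whether germ-free mice given morphine shared the rise.

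The nucleus accumbens, a region of the ventral striatum in the reward circuit, was sampled in bulk from C57BL/6J mice in 33 libraries and 6 groups. H2O mice were conventionally raised and drank water (normal microbiome). Abx mice were raised in the same way and drank vancomycin (0.5 mg/mL), bacitracin (0.5 mg/mL), neomycin (2 mg/mL) and the antifungal pimaricin (1.2 µg/mL), and the labels call their microbiome depleted. Both drinks began 2 weeks before the procedures and continued to the end, these mice were 7 to 9 weeks old, and cages of 4 to 5 mice were assigned to 1 drink. GF mice were germ-free, bred in isolators and matched in age. In each state 6 libraries came from saline mice and 5 from mice given morphine, an opioid, at 20 mg/kg per day for 7 days. The labels give neither the cage nor the sequencing batch of a mouse, so germ-free status and any difference in handling cannot be told apart. Drinks were assigned by cage, so effects of the drink and of the cage cannot be told apart either. Each title was taken as 1 mouse, and p-values measure the spread between these samples.

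The 6 genes belong to different pathways. Wnt10b is a secreted WNT ligand that acts through frizzled receptors and their LRP co-receptors, and Ccl17 is a chemokine that attracts cells bearing the receptor CCR4. Itgad is the alpha subunit of a leukocyte integrin that pairs with the beta subunit Itgb2, and Gabrr2 is the rho2 subunit of ionotropic GABA receptors, known best from the retina. Tmprss6 is a membrane serine protease known from liver, where it lowers hepcidin by restraining BMP signalling, and Pcolce2 is a secreted protein that binds procollagen and enhances its cleavage by the protease Bmp1.

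RefSeq promoters (build GRCm38.p6) were matched by symbol for 4 of the 6 genes and are shown to give the sequence before the start of the listed genes. Itgad and Tmprss6 were not matched. Each line gives the 250 bases before the start of the gene on its own strand, 5′ to 3′, and capitals mark every match to 6 short motifs searched on both strands. Positions are chr15:98778151-98778400 on the minus strand for Wnt10b, chr8:94810203-94810452 on the plus strand for Ccl17, chr4:33062862-33063111 on the plus strand for Gabrr2 and chr9:95637378-95637627 on the plus strand for Pcolce2.
Wnt10b: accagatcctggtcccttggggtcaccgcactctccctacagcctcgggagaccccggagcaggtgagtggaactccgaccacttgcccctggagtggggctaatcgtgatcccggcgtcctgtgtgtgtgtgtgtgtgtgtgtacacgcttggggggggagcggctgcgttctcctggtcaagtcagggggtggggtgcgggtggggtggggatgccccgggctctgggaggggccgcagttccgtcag
Ccl17: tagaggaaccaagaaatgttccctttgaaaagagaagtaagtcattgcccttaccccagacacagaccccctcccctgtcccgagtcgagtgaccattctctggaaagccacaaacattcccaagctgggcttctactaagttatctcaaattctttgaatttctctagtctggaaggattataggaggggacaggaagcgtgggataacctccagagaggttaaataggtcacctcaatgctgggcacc
Gabrr2: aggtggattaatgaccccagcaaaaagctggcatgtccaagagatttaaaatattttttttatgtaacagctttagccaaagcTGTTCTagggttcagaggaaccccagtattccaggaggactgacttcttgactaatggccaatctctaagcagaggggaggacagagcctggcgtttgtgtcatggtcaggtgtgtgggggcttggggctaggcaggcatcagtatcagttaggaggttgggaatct
Pcolce2: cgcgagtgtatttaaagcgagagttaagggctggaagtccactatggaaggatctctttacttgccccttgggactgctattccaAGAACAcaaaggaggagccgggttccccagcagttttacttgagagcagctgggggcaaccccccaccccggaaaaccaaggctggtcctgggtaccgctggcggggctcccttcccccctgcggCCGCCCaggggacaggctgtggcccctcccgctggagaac

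The windows had little in common. The glucocorticoid half-site AGAACA was present in 2 of 4 windows, as its reverse complement in Gabrr2 (167 to 162 bases before the start) and as written in Pcolce2 (165 to 160 bases before it), against 16.1% of 32851 promoter windows of the same length. The SP1 box GGGCGG was present in Pcolce2 alone, against 32.7% of windows. The TATA box TATAAA (12.4% of windows), the AP-1 site TGANTCA (6.75%), the cAMP response element TGACGTCA (1.55%) and the E-box CACGTG (6.02%) were found in none of the 4. The windows of Wnt10b (66.8% G and C, 14 CpG) and Pcolce2 (61.2%, 10 CpG) were richer in CpG than those of Ccl17 (47.6%, 3 CpG) and Gabrr2 (47.6%, 1 CpG), where the median window has 52.4% and 6 CpG. A match describes the letters and is not evidence of binding.

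Each library held 4.87 to 15.3 M (megareads) assigned to genes, and the germ-free libraries were the shallower ones, with medians of 7.58 M in GF saline and 6.86 M in GF morphine against 12.7 M in Abx morphine. GF saline replicate 1, at 15.3 M, stood apart from its group, so germ-free results are also given without it. Levels are CPM, reads rescaled by effective library size, in which 1 read was worth 0.0653 to 0.199. All 6 genes passed the filter on low counts, but Itgad and Ccl17 passed only through the Abx morphine libraries, since 4 of 6 passed in the 28 other libraries. The marker of medium spiny neurons, Drd1a, ranged from 91.6 to 341 CPM over all libraries, so the tissue carried its defining cell type throughout. In bulk tissue, fewer cells of a type and less RNA per cell cannot be told apart.

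Wnt10b, a secreted ligand, was low in 5 groups and high in 1. In H2O saline libraries its lowest, median and highest levels were 0.796, 1.42 and 1.67 CPM, and in Abx saline libraries 0.855, 1.15 and 1.40 CPM. The H2O morphine libraries read 1.26, 1.05, 1.18, 1.51 and 0.910 CPM. These conventional groups overlapped one another. The Abx morphine libraries read 6.67, 4.40, 6.72, 6.13 and 4.31 CPM, from 57 to 85 reads each. GF saline libraries had 0.451, 1.10 and 1.65 CPM (lowest, median, highest), and GF morphine libraries 0.417, 1.03, 0.142, 0.468 and 1.54 CPM. All 5 Abx morphine libraries thus lay above all 28 others, and both germ-free groups lay within or below the range of the water groups. The log2 difference of Abx morphine was 2.32 ± 0.24 (SE) against Abx saline, 2.24 ± 0.25 against H2O morphine and 2.996 ± 0.30 against GF morphine. In order of mean level, Abx morphine (5.65 ± 1.20 CPM, SD, n = 5) was followed by 5 groups from 1.30 to 0.718 CPM, of which no neighbouring pair differed by more than the larger of their SDs.

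Ccl17, the chemokine, rested on fewer reads and had an intermediate level in Abx saline libraries. Lowest, median and highest levels were 0.333, 0.551 and 0.884 CPM in H2O saline and 0.631, 0.960 and 1.74 CPM in Abx saline. The H2O morphine libraries read 0.210, 0.673, 0.915, 0.378 and 0.414 CPM. The Abx saline range began inside the water range and ended above it.
The Abx morphine libraries read 3.69, 1.85, 2.45, 3.49 and 1.87 CPM, from 24 to 45 reads each. GF saline libraries had 0.300, 0.526 and 1.20 CPM, and GF morphine libraries 0.139, 0.587, 0.850, 0.780 and 0.512 CPM, from as few as 1 read. The 5 Abx morphine libraries again lay above all 28 others, although the lowest of them (1.85 CPM) was close to the highest Abx saline library (1.74 CPM). The log2 difference of Abx morphine was 1.36 ± 0.28 against Abx saline, 2.27 ± 0.31 against H2O morphine and 2.19 ± 0.36 against GF morphine. In the order of means, Abx morphine (2.67 ± 0.878 CPM, n = 5) and Abx saline (1.04 ± 0.429, n = 6) each stood off from the next group by more than the larger SD, and the other 4 groups (0.603 to 0.518 CPM) did not differ beyond their spread.

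Itgad, the integrin subunit, had its lowest mean levels in water mice, higher ones in Abx saline and germ-free mice and the highest in Abx morphine mice. In H2O saline libraries the lowest, median and highest levels were 0, 0.134 and 0.707 CPM. The H2O morphine libraries read 0.105, 0.224, 0.196, 0.529 and 0 CPM. At 0 reads, a floor of 3 reads allows up to 0.318 CPM in H2O saline replicate 5 and 0.248 CPM in H2O morphine replicate 6, and such limits cover counting error only. Abx saline libraries had 0.421, 0.826 and 0.872 CPM (lowest, median, highest). The Abx morphine libraries read 3.15, 2.70, 3.64, 3.41 and 2.51 CPM, from 35 to 46 reads each. These 5 lay above all 28 others. GF saline libraries had 0.253, 0.728 and 1.39 CPM, and GF morphine libraries 0.696, 0.440, 0.850, 0.624 and 1.20 CPM. The ranges of both germ-free groups and of Abx saline overlapped one another, and the highest H2O saline library reached into them. The log2 difference of Abx morphine was 2.08 ± 0.32 against Abx saline, 3.74 ± 0.40 against H2O morphine and 2.02 ± 0.37 against GF morphine. Its order of means had 3 tiers, with Abx morphine (3.08 ± 0.472 CPM, n = 5) on top, GF morphine (0.761 ± 0.284), GF saline (0.735 ± 0.376) and Abx saline (0.713 ± 0.205) together, and H2O saline (0.218 ± 0.254) and H2O morphine (0.211 ± 0.198) below. Exons of Itgad overlap those of Cox6a2, Gm39091 and 4931431B13Rik on the opposite strand in the GENCODE annotation. They also overlap the pseudogene Gm17831 on the same strand. The sources used here do not state whether counting used strand, so reads of Itgad and of these genes cannot be told apart. Of the overlapping genes, only Cox6a2 was among the genes tested. Cox6a2, a muscle-type subunit of cytochrome c oxidase, had 5.10 ± 0.624 CPM in Abx morphine and 5.62 ± 1.31 CPM in Abx saline libraries, a log2 difference of -0.14 (adjusted p = 0.712).

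Gabrr2, the receptor subunit, varied more between libraries of 1 group. H2O saline libraries had 0.354, 0.706 and 1.11 CPM (lowest, median, highest) and Abx saline libraries 0.421, 1.35 and 2.99 CPM. The H2O morphine libraries read 0.945, 1.20, 0.588, 0.302 and 1.32 CPM. Abx saline libraries overlapped most of the water range and went above it. The Abx morphine libraries read 5.50, 2.70, 4.35, 2.64 and 4.96 CPM, of which 3 lay above all other libraries. GF saline libraries had 0.810, 1.08 and 2.79 CPM, and GF morphine libraries 1.25, 1.03, 1.98, 2.96 and 1.88 CPM. The lowest 2 Abx morphine libraries overlapped the highest libraries of Abx saline, GF saline and GF morphine. The log2 difference of Abx morphine was 1.36 ± 0.33 against Abx saline, 2.21 ± 0.37 against H2O morphine and 1.15 ± 0.37 against GF morphine. After Abx morphine (4.03 ± 1.30 CPM, n = 5), the order ran GF morphine (1.82 ± 0.757), Abx saline (1.53 ± 0.944), GF saline (1.36 ± 0.750), H2O morphine (0.871 ± 0.424) and H2O saline (0.715 ± 0.243), with no step beyond the larger SD.

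Tmprss6, the membrane protease, had the widest SD relative to its mean of the 6 in Abx morphine mice. H2O saline libraries had 0.942, 1.43 and 2.17 CPM (lowest, median, highest) and Abx saline libraries 0.962, 1.41 and 2.22 CPM. The H2O morphine libraries read 0.420, 0.897, 0.653, 1.21 and 0.910 CPM. Both saline groups covered nearly the same range, and 4 of 5 H2O morphine libraries lay below it. The Abx morphine libraries read 1.80, 4.94, 4.43, 2.56 and 2.59 CPM. GF saline libraries had 0.398, 0.814 and 2.63 CPM, the highest being replicate 1, and GF morphine libraries read 0.974, 0.880, 0.709, 1.25 and 0.854 CPM. Abx morphine replicate 1 (1.80 CPM) lay inside the saline ranges, GF saline replicate 1 exceeded 3 of the 5, and the GF morphine libraries all lay below every Abx morphine library. The log2 difference of Abx morphine was 1.16 ± 0.31 against Abx saline, 1.96 ± 0.35 against H2O morphine and 1.80 ± 0.38 against GF morphine. The means of the 5 groups after Abx morphine (3.26 ± 1.35 CPM, n = 5) ran from 1.46 in H2O saline to 0.818 CPM in H2O morphine, with no step beyond the larger SD.

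Pcolce2, the procollagen-binding protein, had the most reads of the 6 and the smallest difference. H2O saline libraries had 3.498, 4.09 and 5.48 CPM (lowest, median, highest) and Abx saline libraries 3.05, 3.73 and 5.22 CPM. The H2O morphine libraries read 3.15, 2.84, 3.66, 2.19 and 3.39 CPM. Of the 5 H2O morphine libraries, 4 lay below all H2O saline libraries. The Abx morphine libraries read 7.30, 6.10, 7.67, 5.82 and 7.54 CPM. GF saline libraries had 4.10, 5.35 and 7.05 CPM, and GF morphine libraries 1.95, 3.08, 4.25, 4.68 and 3.24 CPM. Abx morphine libraries lay above both water groups, Abx saline and GF morphine, but overlapped GF saline, where replicates 2, 3 and 5 (6.61, 7.05 and 5.98 CPM) reached the lowest Abx morphine value. The log2 difference of Abx morphine was 0.81 ± 0.17 against Abx saline, 1.17 ± 0.18 against H2O morphine, 1.002 ± 0.19 against GF morphine and 0.36 ± 0.17 against GF saline. Abx morphine (6.89 ± 0.862 CPM, n = 5) exceeded GF saline (5.44 ± 1.28, n = 6) by more than the larger SD, and no later step from H2O saline (4.21) to H2O morphine (3.05) did.

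**Figure D1:**
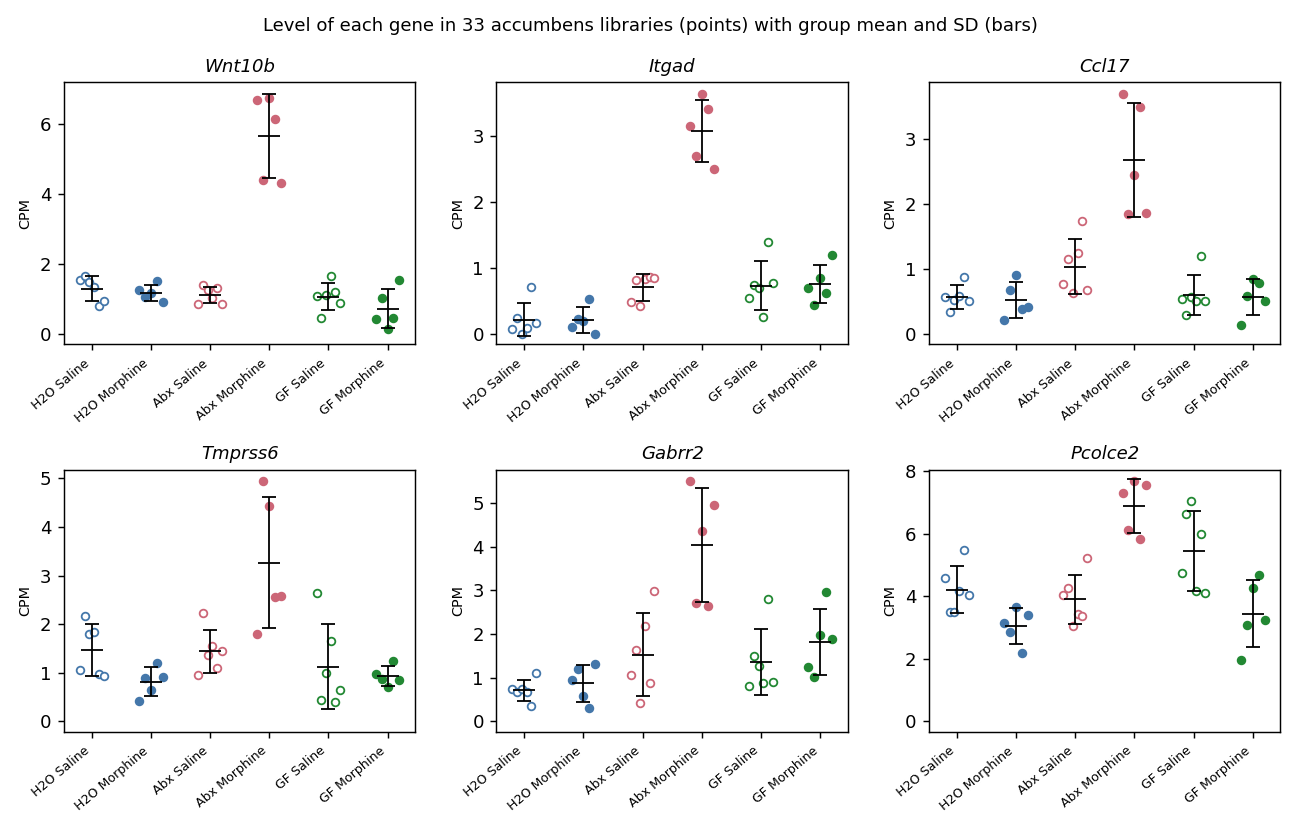
Level in CPM (linear axis from 0) of each gene in every library, by group; open points are saline and filled points morphine libraries, and black bars give the group mean and SD. Abx morphine has the highest mean in all 6 panels, and its 5 libraries lie above all 28 others for Wnt10b, Itgad and Ccl17.

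Counted over libraries, all 5 Abx morphine libraries exceeded every H2O morphine library for 6 of 6 genes (5.99% of the 14602 genes tested did so), every H2O saline library for 5 (10.3%), every GF morphine library for 5 (8.99%), every Abx saline library for 4 (2.82%) and every GF saline library for 3 (6.49%). Against all other libraries at once the count was 3 of 6, and 98 of 14602 genes (0.671%) behaved so. These counts follow from the choice and nothing is read from them. Of those 98 genes, 5 also had a log2 difference of at least 1 against every group, which were Wnt10b, Itgad, Ccl17, Plin4 and Insl6. Plin4, a coat protein of lipid droplets, averaged 56.0 CPM in Abx morphine and 12.8 CPM in the other libraries, and Insl6, an insulin-like peptide, 1.92 and 0.587 CPM. Both were named after their values were seen.

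No rise with morphine was detected in germ-free mice. In GF morphine against GF saline, 0 of 6 genes passed the threshold in edgeR's quasi-likelihood test (adjusted p under 0.05), while 1 of 14602 genes (0.00685%) did and 969 had an unadjusted p under 0.05. Of the 6 estimates, 4 were below 0 and 2 above. Wnt10b differed by -0.62 ± 0.36 on the log2 scale (95% interval -1.36 to 0.13, adjusted p = 0.769), against the 2.32 seen between the Abx groups. Itgad differed by 0.13 ± 0.46 (-0.80 to 1.07, adjusted p = 0.965), against 2.08. Ccl17 differed by -0.01 ± 0.46 (-0.95 to 0.93, adjusted p = 0.999), against 1.36. Tmprss6 differed by -0.46 ± 0.43 (-1.33 to 0.41, adjusted p = 0.850), against 1.16. Gabrr2 differed by 0.53 ± 0.42 (-0.33 to 1.38, adjusted p = 0.822), against 1.36. Pcolce2 differed by -0.65 ± 0.20 (-1.05 to -0.25, adjusted p = 0.580, unadjusted p = 0.00246), against 0.81. For Gabrr2, 1 of 5 GF morphine libraries lay above all 6 GF saline libraries. The Abx differences are given beside the germ-free ones as a description. They were used to choose the genes, and the difference between the germ-free and antibiotic responses was not tested.

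**Figure D2:**
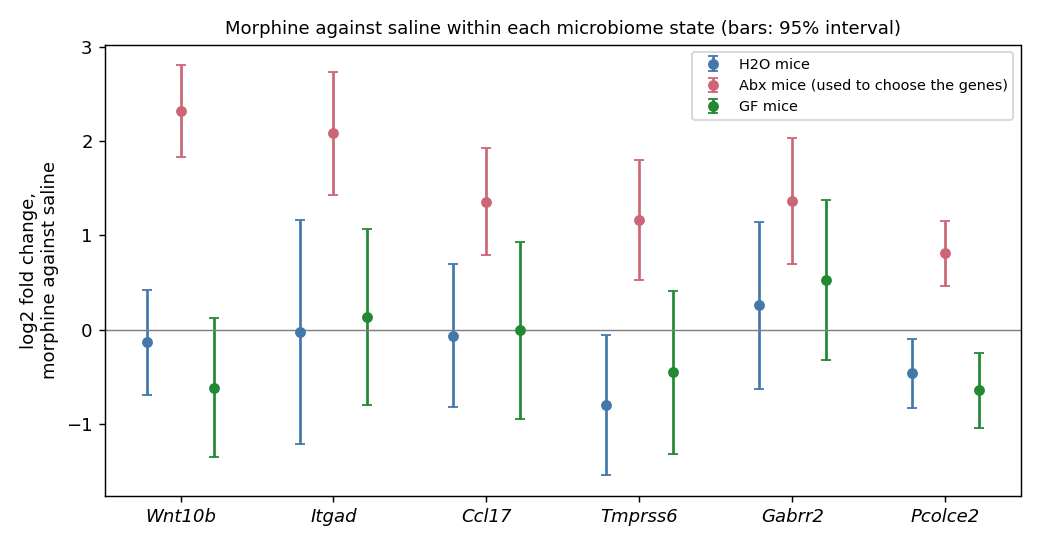
Log2 fold change of morphine against saline (points) with its 95% interval (bars) for the 6 genes in H2O, Abx and GF mice. The Abx values, from 0.81 to 2.32, were used to choose the genes, while the GF values run from -0.65 to 0.53.

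Without GF saline replicate 1 the germ-free estimates were -0.61 for Wnt10b, 0.03 for Itgad, -0.03 for Ccl17, 0.11 for Tmprss6, 0.37 for Gabrr2 and -0.69 for Pcolce2, and again 0 of 6 passed. The Tmprss6 estimate changed sign, and that library held 39 reads of it, at 2.63 CPM, where the next GF saline library had 1.65 CPM. The germ-free values of Itgad rested on 2 to 8 reads per library and those of Ccl17 on 1 to 8.

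No rise was detected in water mice either. In H2O morphine against H2O saline, 0 of 6 genes passed, as did 0 of 14602 (0%) in edgeR, although 2223 genes were under 0.05 before adjustment. Past the threshold were 332 genes in DESeq2 and 1314 in limma voom. Tmprss6 had a log2 difference of -0.80 ± 0.37 (adjusted p = 0.293) and Pcolce2 of -0.47 ± 0.18 (adjusted p = 0.212), with 4 of 5 morphine libraries below all 6 saline libraries for each gene. Pcolce2 was the single member past the threshold in limma voom (-0.52, adjusted p = 0.0333). The other 4 estimates lay between -0.14 (Wnt10b) and 0.26 (Gabrr2). The morphine responses of germ-free and water mice were compared directly as an interaction, in which 0 of 6 genes and 0 of 14602 genes (0%) passed in edgeR (2327 at an unadjusted p under 0.05, and 234 past the threshold in DESeq2). The interaction estimates ran from -0.48 ± 0.46 for Wnt10b to 0.35 ± 0.57 for Tmprss6, which was 0.92 (adjusted p = 0.379) without GF saline replicate 1. The Pcolce2 estimate was negative in both states (-0.47 and -0.65) and positive between the Abx groups.

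Antibiotics without morphine left 3 genes with higher estimates that did not pass. In Abx saline against H2O saline, 0 of 6 genes passed, against 17 of 14602 (0.116%), with 4 to 31 when 1 library was left out. Itgad had a log2 difference of 1.63 ± 0.46 (adjusted p = 0.144), Gabrr2 of 1.11 ± 0.39 (adjusted p = 0.246) and Ccl17 of 0.84 ± 0.33 (adjusted p = 0.292). Of the 6 Abx saline libraries, 4 lay above all H2O saline libraries for Itgad and 3 each for Gabrr2 and Ccl17. Itgad passed in limma voom (1.96, adjusted p = 0.0255), where it was among the genes tested only through its Abx morphine reads. Wnt10b (-0.21 ± 0.27), Tmprss6 (0.00 ± 0.31) and Pcolce2 (-0.10 ± 0.17) had estimates near 0. Abx saline or either water group may have been the reference when the genes were chosen. These tests and those of the water response are therefore not fully independent of the choice.

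Of the 6 genes, Itgad alone passed between germ-free and water mice, a call limited by the choice of the genes and by few reads. In GF saline against H2O saline, Itgad rose by 1.57 ± 0.49 on the log2 scale (adjusted p = 0.0150), from 0.218 to 0.735 CPM, and 3 of 6 GF libraries lay above all H2O libraries. That was 1 of 6, in a comparison that called 4807 of 14602 genes (32.9%), so that share is below the background. Itgad was among the genes tested only through its reads in the Abx morphine libraries, and in the groups compared it had few reads. A water group may have been the reference of the choice, which favours genes low in water mice, so the test is not fully independent of it. With no filter on low counts its adjusted p was 0.0196, and in the 28 libraries without Abx morphine, fitted on the same genes, it was 0.0244. A fit of only the groups compared did not test it. Without GF saline replicate 1 the difference was 1.66 (adjusted p = 0.0135). Over the 12 libraries left out in turn the adjusted p ran from 0.00135 to 0.0378, and the largest estimate was 2.34, without H2O saline replicate 8. Gabrr2 (0.80 ± 0.43, adjusted p = 0.147) and Pcolce2 (0.35 ± 0.17, adjusted p = 0.114) had positive estimates that did not pass, and Wnt10b, Ccl17 and Tmprss6 lay between -0.27 and 0.01. Without GF saline replicate 1, Tmprss6 was -0.75 (adjusted p = 0.0986). Between the morphine groups of both states, GF against H2O, Itgad had a difference of 1.72 ± 0.53 (adjusted p = 0.0499) and the other 5 genes did not pass, against 846 of 14602 genes (5.79%), with 307 to 1227 when 1 library was left out. The same limits on its testing hold here, and the call was marginal. It was lost with no filter on low counts (adjusted p = 0.0638), in the 28 libraries without Abx morphine (0.0792) and without 8 of 10 single libraries, where adjusted p over all 10 ran from 0.0260 to 0.113. Gabrr2 (1.06 ± 0.43, adjusted p = 0.128) and Wnt10b (-0.75 ± 0.35, adjusted p = 0.188) did not pass.

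Over all libraries the 6 genes were correlated, which follows from their choice by the Abx morphine libraries. Over 15 pairs of these genes and 33 libraries, Pearson's r of log2 CPM had a median of 0.577 (0.314 to 0.732). In the 28 libraries without Abx morphine the median was 0.107 (-0.419 to 0.438), and after group means were removed it was 0.0326 (-0.340 to 0.538). The highest within-group value was that of Gabrr2 with Pcolce2, 0.538, and Itgad with Gabrr2 had the highest r in the 28 libraries, 0.438. These values describe libraries that share groups and depth, and nothing is read from the value over 33 libraries.

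Closest in pattern to each member, among all genes tested, were genes outside the 6. The 5 genes with the highest r to Itgad over 33 libraries were Plin4 (0.886), Hif3a (0.877), Pnpla2 (0.856), Arrdc2 (0.828) and Sult1a1 (0.827). Pnpla2 is a triglyceride lipase of lipid droplets, Hif3a a hypoxia-inducible factor subunit, Arrdc2 an arrestin-domain protein and Sult1a1 a sulfotransferase. Without the Abx morphine libraries, r to Itgad was 0.814 for Plin4, 0.782 for Hif3a and 0.737 for Pnpla2. Gabrr2 had Sult1a1 (0.822), Fam107a (0.814), Etnppl (0.803), Plin4 (0.787) and Ddc (0.771), so Plin4 and Sult1a1 stood among the 5 of both genes. Ccl17 had Rhou (0.817), Pla2g4e (0.816), Rtca (0.803), Igfbp3 (0.796) and Spg7 (0.792). Pcolce2 had Dbndd2 (0.726), Cpm (0.721), Mfsd2a (0.714), Rhou (0.709) and Pnpla2 (0.704), sharing Rhou with Ccl17 and Pnpla2 with Itgad. Wnt10b had Wdr33 (0.831), Xpc (0.820), Phf20 (0.790), Ncapd3 (0.790) and P2rx6 (0.790). For Wnt10b the likeness fell most without the Abx morphine libraries, to 0.161 for Ncapd3 and 0.356 for Xpc, a DNA repair protein. Tmprss6 had Rbm7 (0.804), Rnf34 (0.790), Rab40c (0.785), Med17 (0.774) and Tsnax (0.772). No member was among the 5 of another. The ranking used the Abx morphine libraries by which the 6 were chosen, so a high r follows in part from the choice. Values of r without these libraries are given only for genes already ranked with them. In the 28 other libraries Itgad and Ccl17 had too few reads to pass the filter.

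Relatives of the 6 genes were followed in the same comparisons. Lists of the families and pathways held 112 distinct other genes with enough reads, and in Abx morphine against Abx saline 1 of them was higher and 6 lower, where 784 of all 14602 genes (5.37%) passed, or 265 without Abx morphine replicate 1. Their median log2 difference was -0.02, beside -0.01 over all genes tested, and their differences ran from -0.94 (Ccl9) to 0.57 (Wnt1). Against H2O morphine, 8 were higher and 8 lower, where 1518 of all genes (10.4%) passed. In GF morphine against GF saline, 0 of 112 passed, with a median of 0.06. These comparisons of Abx morphine for genes outside the 6 were added after the data were seen.

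Among WNT genes, 0 of 11 other ligands passed in Abx morphine against Abx saline, and 1 passed against H2O morphine (Wnt3, higher by 0.65, adjusted p = 0.0183). Against GF morphine 5 of these ligands were higher and 0 lower, where 28.1% of all genes passed. Against GF saline 4 were higher and 0 lower, where 30.1% passed. Of 20 receptors and export proteins, 0 passed against Abx saline, and the frizzled receptor Fzd2 was higher against H2O morphine (0.40, adjusted p = 0.00622). Of 15 feedback and target genes, 0 were higher and 2 lower against Abx saline. Those were Lef1, a transcription factor of the pathway, from 5.77 to 3.85 CPM (-0.58 ± 0.15, adjusted p = 0.0161), and the feedback inhibitor Nkd1, from 17.2 to 13.1 CPM (-0.40 ± 0.12, adjusted p = 0.0458). Wnt1, which neighbours Wnt10b on the chromosome, averaged 3.002 ± 0.420 CPM in Abx morphine and 2.03 ± 0.601 CPM in Abx saline libraries, a difference of 0.57 ± 0.24 that did not pass (adjusted p = 0.173). With 1 library left out at a time, 0 to 2 feedback and target genes passed against Abx saline. The count of 2 held in only 2 of these 11 fits and was smaller in the other 9.

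Of 10 tested leukocyte integrins and their ligands, 0 were higher and 1 lower against Abx saline. Itgam, the alpha subunit that pairs with Itgb2 on microglia and myeloid cells and a neighbour of Itgad, fell from 29.7 ± 3.12 to 21.5 ± 2.41 CPM (-0.46 ± 0.10, adjusted p = 0.00385), and all 5 Abx morphine libraries (19.5 to 24.99 CPM) lay below all 6 Abx saline libraries (25.8 to 33.7). The share of all genes that lay below in this way was not counted, and 475 of 14602 genes were lower in this comparison. Against H2O morphine, Itgam (-0.68), Itgal (-1.03) and the endothelial ligand Vcam1 (-0.60) were lower and Icam4 (0.67) was higher. The partner subunit Itgb2 averaged 6.52 ± 0.887 CPM in Abx morphine and 7.64 ± 1.64 CPM in Abx saline libraries, which overlapped. Itgam in GF morphine (33.5 ± 4.59 CPM) differed from GF saline (36.4 ± 5.27) by -0.12 (adjusted p = 0.827).

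**Figure D3:**
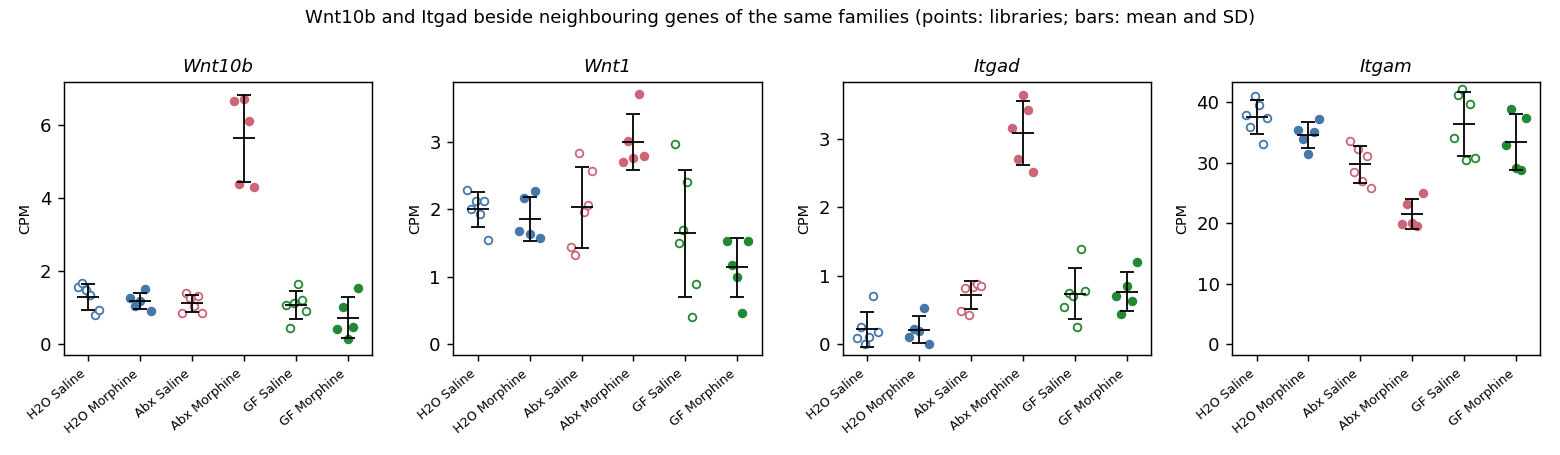
Levels in CPM of Wnt10b beside Wnt1 and of Itgad beside Itgam in every library, with group means and SDs; open points are saline and filled points morphine libraries. In Abx morphine libraries Itgad lies above and Itgam below all Abx saline libraries.

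Of 6 tested chemokines and receptors of the CCL family, 0 were higher and 1 lower against Abx saline, the chemokine Ccl9 (-0.94 ± 0.28, adjusted p = 0.0424). With 1 library left out at a time 0 to 2 passed, and the count of 1 held in only 2 of these 11 fits. Against H2O morphine, 1 was higher and 2 lower, among them Ccl9 (-0.90) and Ccl25 (0.68 ± 0.15, adjusted p = 0.00310). Of 14 tested GABA-A receptor subunits, 0 passed against Abx saline and Gabra2 was lower against H2O morphine (-0.73 ± 0.14, adjusted p = 0.00106). In GF saline against H2O saline, 8 of these 14 subunits were higher and 1 lower, among them Gabrb2 (0.74) and Gabra2 (0.57). In that comparison, which called 32.9% of all genes, 0 of 11 WNT ligands were higher and 2 lower, Wnt7a (-0.71 ± 0.12, adjusted p = 8.10e-05) and Wnt7b (-0.91 ± 0.24, adjusted p = 0.00479). Of 20 WNT receptors and export proteins 7 were higher and 4 lower, and of 15 WNT feedback and target genes 1 was higher and 4 lower. Of 10 leukocyte integrins and ligands 0 were higher and 2 lower, of 17 genes of the BMP and hepcidin axis 2 were higher and 1 lower, and of 17 procollagen processing genes 5 were higher and 0 lower. Of the 6 CCL genes and the 3 proteases, 0 passed.

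Of 3 tested proteases related to Tmprss6, 0 passed. In the BMP and hepcidin axis on which Tmprss6 acts, 1 of 17 genes was higher against Abx saline and 0 lower. That was the transferrin receptor Tfrc, from 67.8 to 99.8 CPM (0.56 ± 0.13, adjusted p = 0.00998). Against H2O morphine, Tfrc (0.48), Tfr2 (0.73) and the BMP signal transducer Smad1 (0.40) were higher. Of 17 tested genes of procollagen processing, 0 were higher and 2 lower against Abx saline. Serpinh1, the collagen chaperone, fell from 17.02 to 9.34 CPM (-0.86 ± 0.13, adjusted p = 0.000109), and the lysyl hydroxylase Plod1 from 24.8 to 19.0 CPM (-0.38 ± 0.11, adjusted p = 0.0441). Against H2O morphine, 1 was higher and 2 lower. Bmp1, the protease that Pcolce2 enhances, was the higher one (0.41 ± 0.09, adjusted p = 0.00294), and Serpinh1 (-0.99 ± 0.13, adjusted p = 4.75e-06) and Plod1 (-0.39 ± 0.12, adjusted p = 0.0284) were lower. With 1 library left out at a time, 1 to 3 of the procollagen genes passed against Abx saline. The procollagen count fell from 2 to 1 in 10 of these 11 fits. Of the BMP and hepcidin axis 0 to 1 passed, Tfrc being lost without Abx morphine replicate 1.

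**Figure D4:**
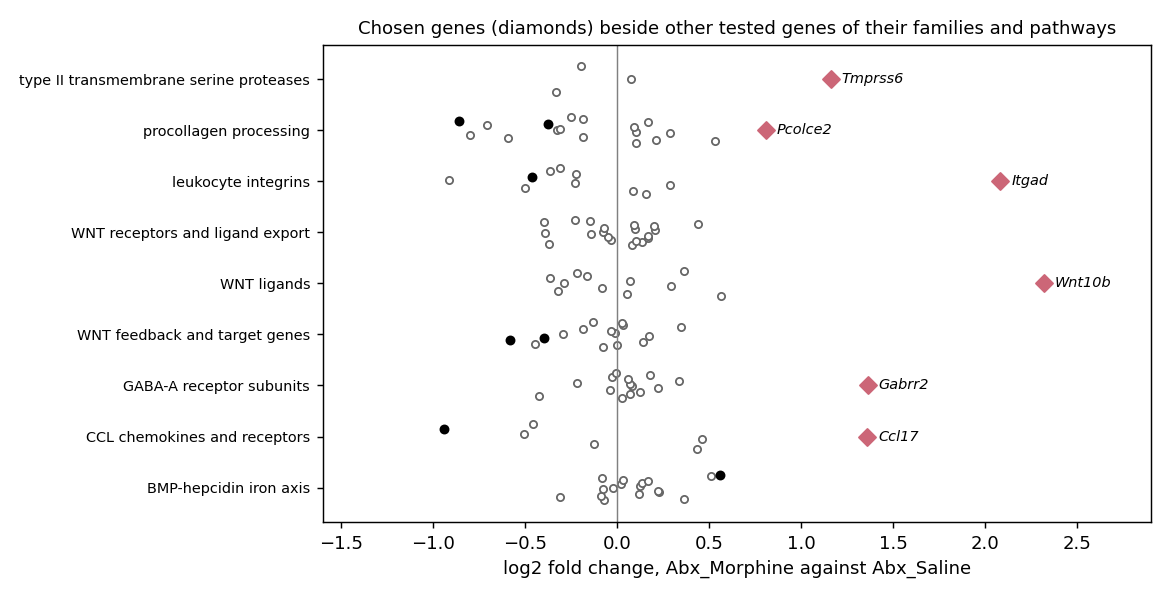
Log2 fold change of Abx morphine against Abx saline for the 6 chosen genes (diamonds) and for the other tested genes of their families and pathways (circles, filled where adjusted p is under 0.05). The 112 other genes run from -0.94 to 0.57, and the values of the diamonds follow from the choice of the 6 genes.

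Genes beside the 6 on their chromosomes were also followed, using neighbour names alone. Of 12 neighbours with enough reads, 0 were higher and 1 lower (Itgam) in Abx morphine against Abx saline, with log2 differences from -0.46 to 0.57. In GF morphine against GF saline, 0 of 12 passed.

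Cell type markers moved with the Abx morphine group in part. The summed level of 10 microglia markers was 381 to 455 CPM in Abx morphine libraries, below the 459 to 561 CPM of Abx saline, 588 to 616 of H2O saline, 509 to 572 of H2O morphine, 494 to 670 of GF saline and 518 to 626 of GF morphine libraries. How often sums of other genes separate in this way was not counted. Of these markers 0 were higher and 2 lower against Abx saline, where 5.37% of all genes passed. Those were Fcrls, from 27.3 to 15.2 CPM (-0.85 ± 0.12, adjusted p = 4.38e-05), and Cx3cr1, from 69.1 to 51.1 CPM (-0.44 ± 0.09, adjusted p = 0.00359). In Abx morphine, 7 of the 10 were lower against H2O morphine (10.4% of all genes passed) and 9 against H2O saline (27.1%). All 10 were lower against GF morphine (28.1%) and against GF saline (30.1%), and 0 were higher in any of these comparisons. Of 10 endothelial markers 2 were lower and 0 higher against Abx saline, 4 lower against H2O morphine, 8 against H2O saline, 4 against GF morphine and 1 against GF saline, where 2 were higher. Their summed level was 228 to 273 CPM against 238 to 299 in Abx saline. Markers of border macrophages and dendritic cells summed to 19.3 to 22.4 CPM in Abx morphine and 18.2 to 26.7 CPM in Abx saline libraries. Lymphocyte markers summed to 39.7 to 77.2 CPM in Abx morphine and 26.3 to 73.9 CPM in Abx saline libraries. Many of these markers were near 0, and the median marker averaged 0.0407 CPM in Abx morphine and 0.00685 CPM in Abx saline. In germ-free mice the sums had medians of 51.4 (saline) and 41.8 CPM (morphine), where Cd4 alone averaged 53.9 and 40.3 CPM. The sums therefore do not give a level of lymphocytes. Cd4, the 1 lymphocyte marker tested, did not pass between the Abx groups. Markers of neutrophils and erythroid cells of blood had median sums of 2.09 CPM in Abx morphine and 4.26 CPM in Abx saline libraries. Of these, Alas2 was lower against Abx saline, from 3.95 to 2.02 CPM (-0.95 ± 0.28, adjusted p = 0.0437). Its means were close to the sums, which therefore say little about neutrophils. In Abx morphine libraries Cd3e of lymphocytes reached 0.180 CPM at most, S100a8 of neutrophils 0.155 CPM and Alb of hepatocytes 0.158 CPM. Markers of cortical-type glutamatergic neurons summed to 220 to 1076 CPM in Abx morphine, 151 to 1606 in Abx saline, 61.6 to 778 in H2O saline, 65.8 to 1299 in H2O morphine, 73.2 to 420 in GF saline and 67.8 to 88.3 in GF morphine libraries. The GF morphine libraries were low and alike in these markers, and both the Abx and the water libraries varied widely. The part of these markers in the levels of the 6 genes was not tested.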

How the data were processed

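The 6 genes and the gene lists were chosen with earlier results of these data known. Whole-number counts per gene symbol were used as deposited by the authors; FastQC, STAR 2.4.0 and edgeR are named in the submitters' processing notes, and the genome build, gene models and use of strand are not given in the sources. A normalised signal that the authors deposited holds 10871 genes and none of the 6, so it was used only to restore 19 of 27 symbols turned into dates (8 rows were left out). Genes were kept by filterByExpr at a minimum count of 10 (14602 genes), scaled by TMM and fitted with 6 group means over 33 libraries (27 residual degrees of freedom) in edgeR 4.0.16 (R 4.3.3). Quasi-likelihood tests were two-sided with Benjamini-Hochberg adjustment over all genes and a threshold of 0.05. SE is the log2 fold change over the root of F. The code was tested on simulated data. Alternatives were DESeq2 1.42.0, limma 3.58.1 voom, other factors, filters and fits, and leaving out each library. Named genes were the 6, up to 4 called genes per list and the 5 genes with the highest r to each; the values of 1 listed gene are not reported here. Comparisons within groups found no repeated library (75 pairs, chi-squared per degree of freedom of at least 3.19).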

Additional observations from a re-analysis of the deposited data

Results flagged for a closer look

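In 36 combinations of gene and group, 3 values, from a pair of libraries, lay far from the others of their group. For normally distributed values, chance gives about 1 in 20. GF saline replicate 5 was far above its group for Ccl17, at 1.20 CPM with the next library at 0.564 CPM, and for Gabrr2, at 2.79 CPM with the next at 1.502 CPM. H2O saline replicate 8 was far above its group for Itgad, at 0.707 CPM with the next library at 0.250 CPM. These rest on 6, 14 and 8 reads, so that rate may not hold for them. GF saline replicate 5 was the shallowest library, at 4.87 M, where 1 read was worth 0.199 CPM.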

How the results depend on the processing

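In GF morphine against GF saline, 0 of the 6 genes passed the threshold in any fit that tested them. Of the 6, 3 had Abx morphine above all other libraries with any single library left out, which follows from their choice. With all libraries, 98 of 14602 genes (0.671%) behaved so. Low counts are the limit: Itgad and Ccl17 rest on 1 to 8 reads in germ-free libraries, and a fit of only the groups compared did not test them, so its count of members past the threshold was 0 in GF saline and GF morphine against the water groups. DESeq2 gave an adjusted p for 24 of 36 member values. The causes of the shifts below were not tested.

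DESeq2 called 332 genes in H2O morphine against H2O saline, 100 in Abx saline against H2O saline and 234 in the interaction of germ-free and water responses. Limma voom called 1314, 187 and 42 there, 0 in GF morphine against GF saline, and 2462 and 3548 in Abx morphine against Abx saline and H2O morphine. It put 1 member past the threshold in each of the first pair of comparisons. Groups fitted alone gave 989, 53, 0 in the germ-free comparison, 329 in GF against H2O morphine and 2396 in Abx against H2O morphine. In GF against H2O morphine, 0 members passed with no filter and in the 28 libraries without Abx morphine, which was chosen after the data were seen.

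Estimates near 0 changed sign. Tmprss6 in Abx saline against H2O saline was -0.0079 in DESeq2, -0.0031 with upper-quartile factors, -0.0063 with no filter, -0.0022 with the CPM filter and -0.0019 in 28 libraries. Ccl17 in GF saline against H2O saline was -0.031 in limma voom and -0.029 with upper-quartile factors, which gave 0.026 in GF morphine against GF saline.

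Replicate numbers did not pair libraries (66 pairs with the same number, mean r of -0.0007, from -0.473 to 0.462). With the replicate number as a block, 0 genes passed in GF morphine against GF saline and 4 in Abx saline against H2O saline. The block turned Ccl17 to 0.061 in GF morphine against GF saline, 0.14 in the water response and -0.079 in the interaction. It turned Itgad to 0.91 in the water response and -0.78 in the interaction, and in Abx saline against H2O saline Tmprss6 to -0.30 and Pcolce2 to 0.021.

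With each library left out in turn, genes called ran from 0 to 2 in GF and in H2O morphine against saline, 4 to 31 in Abx saline against H2O saline, 307 to 1227 in GF against H2O morphine, 265 to 840 in Abx morphine against Abx saline and 0 to 94 in the interaction. Members past the threshold in GF against H2O morphine ran from 0 to 1. Itgad ran from -0.65 to 0.75 in the water response, -0.064 to 0.34 in the germ-free response and -0.62 to 0.78 in the interaction. Ccl17 ran from -0.39 to 0.10, -0.20 to 0.26 and -0.14 to 0.38 in the same order, from -0.20 to 0.18 in GF saline and -0.12 to 0.39 in GF morphine against water. Tmprss6 ran from -0.17 to 0.16 in Abx saline against H2O saline and -0.60 to 0.11 in the germ-free response.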
